A study of Homo sapiens with 4 samples.

Results

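The genes described here are 40 genes of the unfolded protein response and of protein folding in the endoplasmic reticulum (ER), read in U87 cells kept with or without carnosine. They were chosen by symbol from a table of 58219 genes, and each of the 40 symbols matched 1 row. U87 is a long-established line from a human glioblastoma. Carnosine joins beta-alanine to histidine. The groups were cells given fresh medium with 50 mM carnosine for 24 h and cells given fresh medium with 0 mM for the same 24 h, with 2 libraries in each group, all from this single line. Libraries were of total RNA after removal of ribosomal RNA. The comparison asks which of these transcripts differed when carnosine was present.

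The ER folds secreted and membrane proteins. When unfolded proteins build up there, the membrane sensors IRE1 (gene ERN1), PERK (EIF2AK3) and ATF6 start the unfolded protein response. IRE1 splices XBP1 mRNA into the form that encodes an active transcription factor, ATF6 is cut in the Golgi to release another, and PERK phosphorylates the initiation factor eIF2alpha, which slows translation and favours ATF4 and its target DDIT3. The chaperone BiP (HSPA5), the best known target gene of the response, holds the sensors inactive while it is bound to them. Rises of HSPA5, HERPUD1, DNAJB9 and DDIT3 are the usual readouts of ER stress.

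Of the 40 genes, 39 had enough counts to be tested, and HSPA5 alone passed. HSPA5 fell 1.59-fold with carnosine (log2 fold change -0.67 ± 0.11 SE, n = 2 each). No gene of the group rose. The fall of 1 of 39 genes, and the rise of 0, stood beside 4.36% lower and 3.95% higher (8.31% in all) among the 16340 genes tested, and 2.56% of the 39 were called. These calls use edgeR's quasi-likelihood test with p-values adjusted by the Benjamini-Hochberg method over the whole tested table, at a threshold of 0.05. At an unadjusted p under 0.05 there were 8 of the 39 on the lower side and 7 on the higher side, against 14.1% and 13.3% of all genes tested. DESeq2 called 7 of the 39 (3 lower and 4 higher, 17.9%), against 13.5% of all genes. Limma-voom called HSPA5 alone, against 8.09% of all genes. Whether the share called lay below or above that of all genes thus depended on the tool. These shares of all genes are also the background for the counts by role and by list below. Both carnosine libraries lay below both controls in 28.8% of all genes tested and above both in 27.8%. Those shares are the background wherever groups are said below not to overlap.

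**Figure D1:**
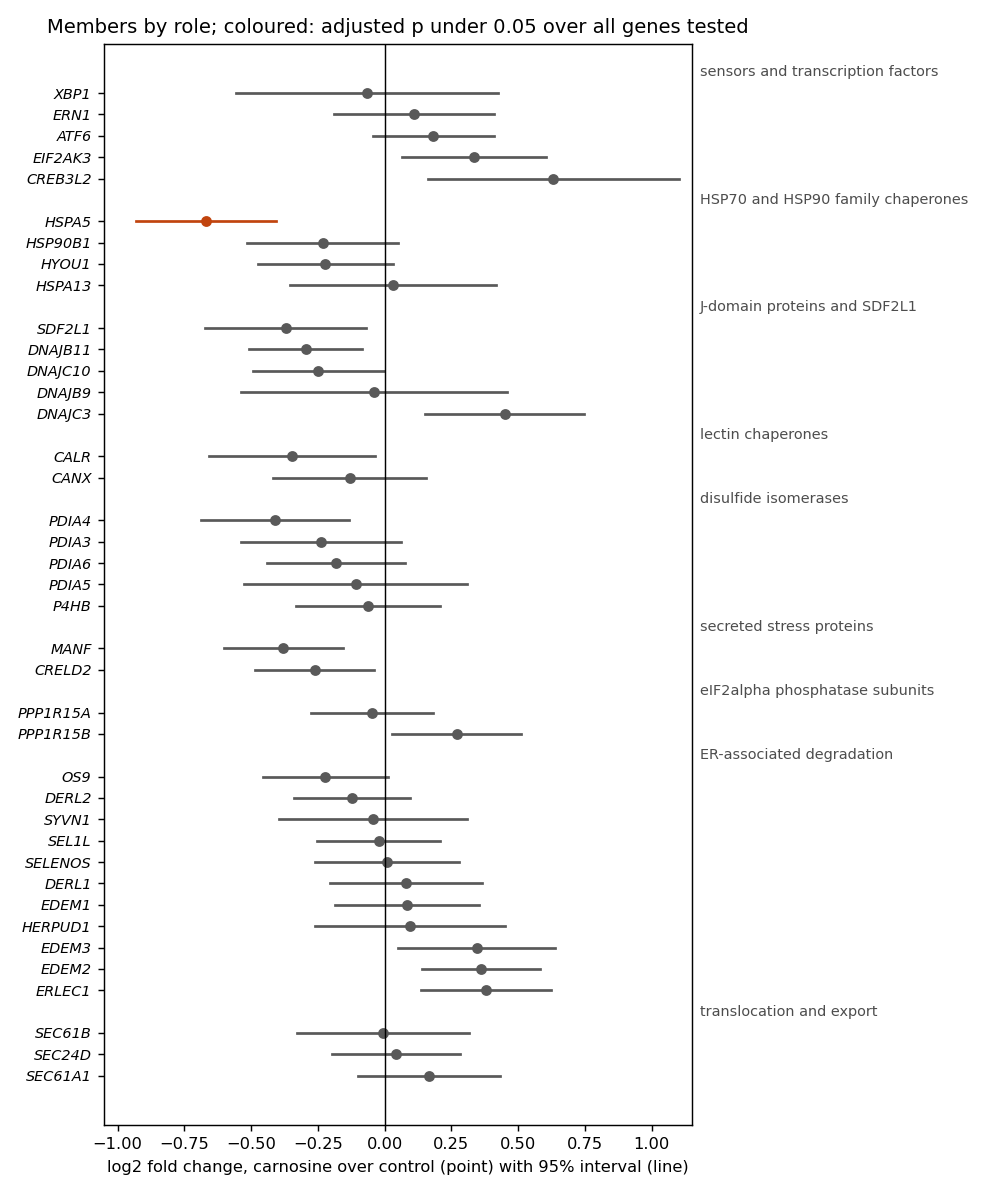
Log2 fold change of the 39 tested genes, carnosine over control (x axis), grouped by role, with 95% intervals that are not adjusted for the number of genes. HSPA5 at -0.67 is the coloured point and the one that passed. All 5 disulfide isomerases of the group lie below 0, with 0 of them passing, and CREB3L2 at 0.63 is the highest.

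The promoter of HSPA5 is shown because this gene carries the result and because its best known control element, the ER stress element, can be read in it. That element is CCAAT, then 9 bases of any kind, then CCACG. In other studies of mammalian cells the CCAAT part is bound by NF-Y and the CCACG part by ATF6 or XBP1. The lines give the 250 bases before the start of HSPA5 (GRCh38.p14, chr9:125241344-125241593, minus strand) and of HSP90B1 (chr12:103930160-103930409, plus strand), 5′ to 3′, from RefSeq. Capitals mark the fixed letters of each exact match, on either strand.
HSPA5: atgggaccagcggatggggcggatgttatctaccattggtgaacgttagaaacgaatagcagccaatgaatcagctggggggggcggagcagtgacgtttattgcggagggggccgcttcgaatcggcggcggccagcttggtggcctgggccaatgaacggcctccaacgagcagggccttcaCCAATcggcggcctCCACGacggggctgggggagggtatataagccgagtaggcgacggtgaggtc
HSP90B1: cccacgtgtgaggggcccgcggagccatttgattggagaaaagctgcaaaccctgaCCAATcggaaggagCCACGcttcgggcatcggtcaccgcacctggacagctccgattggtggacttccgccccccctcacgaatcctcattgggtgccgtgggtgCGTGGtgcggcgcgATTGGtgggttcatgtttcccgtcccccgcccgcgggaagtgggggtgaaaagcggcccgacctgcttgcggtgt
HSPA5 held 1 exact match, beginning at base -66 from the start. HSP90B1 held 2, beginning at bases -194 and -89, of which the nearer one lies on the opposite strand.

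Windows from 250 bases before to 50 bases after a start were on hand for 36 of the 40 genes, and 7 of these 36 (19.4%) held the element on either strand. It stood in 0.0769% of all 35116 windows and in 0.158% of the 10146 tested genes with a window, which include these 36. Among the 10110 other tested genes with a window the share was 0.089%. The 40 genes were chosen as genes of the response in which this element is known, so their higher share is no independent result. The sites of the other 5 genes are given in the direction of the motif, with the fixed letters in capitals, because these genes form the comparison below. They come from RefSeq windows of GRCh38.p14, chr19:12938359-12938658 for CALR, chr5:179698679-179698978 for CANX, chr22:49918384-49918683 for CRELD2, chr2:10812736-10813035 for PDIA6 and chr22:28800520-28800819 for XBP1. In CALR and CRELD2 the site lies on the strand opposite to the gene.
CALR: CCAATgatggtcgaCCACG
CANX: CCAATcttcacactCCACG
CRELD2: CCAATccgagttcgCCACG
PDIA6: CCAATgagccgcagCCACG
XBP1: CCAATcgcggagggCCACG
The related element ATTGG, 1 base of any kind, then CCACG stood in HYOU1, with 2 copies, in HERPUD1 and in SDF2L1. It stood in 0.128% of tested genes with a window, these 3 included. The letters TGACGTGG, a site to which XBP1 or ATF6 can bind, stood in HYOU1 and DNAJC10, against 1.20%. In HYOU1 these letters overlap a copy of the element before. A match is a description of these letters and no test of binding.

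The libraries were deep. Gene counts summed to 57728762 and 51632970 in carnosine replicates 1 and 2 and to 71766267 and 59155538 in control replicates 1 and 2, and the 40 genes held 453624 and 399740 of these counts with carnosine against 588637 and 499247 in controls. As a check of the label, VIM, CD44, TNC, FN1, NES, SOX9 and EGFR, genes commonly expressed by glioblastoma lines, each had at least 1426 counts in every library. GFAP, the intermediate filament of astrocytes, had 10 and 14 counts with carnosine and 16 and 4 in controls. Of 28 markers of astrocytes, leukocytes, endothelium, neurons, oligodendrocytes and epithelium, 8 had no count in any library, among them AQP4, CD3E, CDH5, RBFOX3 and MOG. SLC1A3, an astrocyte glutamate transporter, and PECAM1, an endothelial adhesion molecule, rose (log2 fold changes 1.07 and 1.28, adjusted p = 0.0203 and 0.0215, edgeR). The astrocyte markers summed to 140.8 and 191.4 CPM with carnosine against 72.7 and 86.6 CPM in controls, nearly all of it SLC1A3, and the endothelial markers to 6.97 and 5.70 against 2.35 and 3.05 CPM. The neuron markers summed to 22.75 and 19.54 CPM with carnosine against 27.61 and 25.26 CPM in controls. The epithelial markers summed to 7.98 and 7.92 against 9.61 and 9.77 CPM, and the oligodendrocyte markers to 2.01 and 2.74 against 3.69 and 4.21 CPM. The leukocyte markers summed to 0.366 and 0.894 against 0.760 and 0.801 CPM. The part of these markers in the results was not tested. In bulk RNA, fewer cells of a kind and less RNA per cell cannot be told apart.

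Among the Hsp70 and Hsp90 chaperones, HSPA5 (ENSG00000044574.7, chromosome 9, 125234853 to 125241330, GRCh38) had 399.3 and 374.6 CPM with carnosine, against 633.0 and 596.5 CPM in controls. CPM are counts divided by library size, after a scaling for composition, and brought to a common total. The groups did not overlap, and the gap between them was several times the gap within either. The adjusted p was 0.0214, and the 95% interval of the log2 fold change ran from -0.93 to -0.41. In raw counts this was 24013 and 18864 with carnosine against 45008 and 34999 in controls, so counting error is a small part of the spread. The call ended without control replicate 1 (adjusted p = 0.0959, log2 fold change -0.63) and without control replicate 2 (0.0739, -0.71). It held without carnosine replicate 1 (0.0139) or carnosine replicate 2 (0.0203).

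HSP90B1, the ER form of Hsp90 known as GRP94, had 599.5 and 651.0 CPM with carnosine against 697.3 and 770.8 CPM in controls. The carnosine libraries lay below both controls, but the difference did not pass (log2 fold change -0.23 ± 0.12 SE, adjusted p = 0.265, edgeR). HSPA5 was 0.666 and 0.575 times HSP90B1 with carnosine, against 0.908 and 0.774 times in controls, and the difference of these ratios was not tested. HYOU1, a large Hsp70 relative that exchanges nucleotide on BiP, had 128.2 and 116.0 CPM with carnosine and 148.0 and 137.0 CPM in controls (log2 fold change -0.22, adjusted p = 0.235). HSPA13, a shorter Hsp70 relative, had 72.6 and 97.4 CPM with carnosine and 75.5 and 91.0 CPM in controls, so its groups overlapped.

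**Figure D2:**
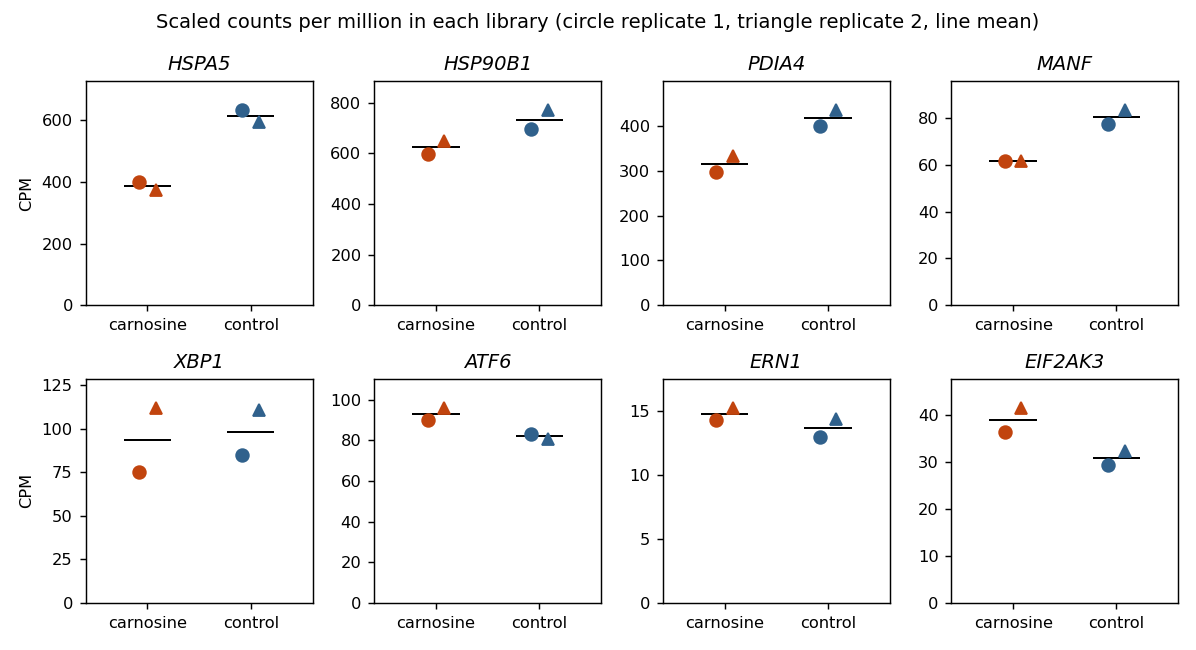
CPM (y axis from 0) in each library of 8 genes, carnosine left of control, with circles for replicate 1, triangles for replicate 2 and lines for the mean of 2. HSPA5 has the widest gap between groups, and the libraries of XBP1 differ more within groups than between them.

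Of the 5 sensors and transcription factors 0 passed. At an unadjusted p under 0.05 there were 0 lower and 2 higher, against 14.1% and 13.3% of all genes tested. DESeq2 called 1, against 13.5%, and limma-voom 0, against 8.09%. ATF6 had 90.0 and 96.0 CPM with carnosine against 83.3 and 80.6 CPM in controls (log2 fold change 0.18 ± 0.10 SE, adjusted p = 0.273, edgeR). EIF2AK3, or PERK, had 36.4 and 41.4 CPM with carnosine against 29.4 and 32.3 CPM in controls (0.33 ± 0.11, adjusted p = 0.116). ERN1, or IRE1, had 14.3 and 15.2 CPM with carnosine against 13.0 and 14.4 CPM in controls (0.11 ± 0.13, adjusted p = 0.626). Both carnosine libraries lay above both controls for ATF6 and EIF2AK3, and the groups overlapped for ERN1. Such separation upward was seen for 9 of the 39 genes and downward for 15, against 27.8% and 28.8% of all genes tested, so the upward share was below that of all genes and the downward share above it.

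XBP1 had 75.2 and 112.0 CPM with carnosine and 84.9 and 111.1 CPM in controls. Its libraries differed by more within each group than the groups did (log2 fold change -0.07 ± 0.21 SE, adjusted p = 0.877, 95% interval from -0.56 to 0.43). Gene counts do not tell the spliced from the unspliced form of XBP1, nor cut from uncut ATF6. CREB3L2, an ER-bound transcription factor of the same class as ATF6, had 394.3 and 283.4 CPM with carnosine against 250.3 and 187.3 CPM in controls. It had the highest log2 fold change of the 39 genes, 0.63 ± 0.20, but did not pass (adjusted p = 0.0962). The spread within each group was wide, and both carnosine libraries lay above both controls.

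The J-domain cochaperones bring substrates to BiP and start its ATP cycle. Of 4 of them and SDF2L1, a partner of DNAJB11 without a J domain, 0 passed. At an unadjusted p under 0.05 there were 3 lower and 1 higher, against 14.1% and 13.3% of all genes tested. DESeq2 called 1, against 13.5%, and limma-voom 0, against 8.09%. DNAJB11 had 49.8 and 50.7 CPM with carnosine against 61.9 and 61.4 CPM in controls (log2 fold change -0.30 ± 0.09 SE, adjusted p = 0.0890, edgeR). DNAJC10, which also reduces disulfides for degradation, and SDF2L1 had -0.25 and -0.37 (adjusted p = 0.176 and 0.119). All 3 had both carnosine libraries below both controls, as had 28.8% of all genes tested. DNAJC3, or p58IPK, also known as an inhibitor of PERK, had 171.1 and 204.8 CPM with carnosine against 130.4 and 144.8 CPM in controls (0.45 ± 0.13, adjusted p = 0.0734). DNAJB9, or ERdj4, which restrains IRE1, had 7.10 and 8.78 CPM with carnosine and 6.79 and 9.53 CPM in controls, and its groups overlapped.

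The lectin chaperones hold glycoproteins during folding. CALR, or calreticulin, had 934.9 and 1092 CPM with carnosine against 1242 and 1335 CPM in controls (log2 fold change -0.35 ± 0.13 SE, adjusted p = 0.147, edgeR). CANX, or calnexin, had 740.2 and 834.6 CPM with carnosine against 842.2 and 882.5 CPM in controls (-0.13 ± 0.12, adjusted p = 0.537). In both genes the carnosine libraries lay below both controls, as in 28.8% of all genes tested. Neither passed, with 1 at an unadjusted p under 0.05 and 0 called by DESeq2 or limma-voom.

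The protein disulfide isomerases form and shuffle disulfide bonds. PDIA4 had 296.4 and 332.1 CPM with carnosine against 400.5 and 434.6 CPM in controls (log2 fold change -0.41 ± 0.12 SE, adjusted p = 0.0755, edgeR), the second lowest log2 fold change of the group after HSPA5. PDIA3, which works with the lectin chaperones, PDIA6, PDIA5 and P4HB had -0.24, -0.18, -0.11 and -0.06 (adjusted p from 0.279 to 0.770). All 5 lay below 0, also with 3 other ways of scaling the libraries, though PDIA5 lay above 0 without control replicate 1 or carnosine replicate 2. Of the 5, 0 passed, with 1 at an unadjusted p under 0.05, 1 called by DESeq2 and 0 by limma-voom. The direction was not shared by the list of other ER oxidation and thiol enzymes, where 8 of 15 lay below 0 and 7 above. Of all 16340 genes tested, 8149 lay below 0. P4HB, also a subunit of the enzyme that hydroxylates proline in collagen, had 751.3 and 693.7 CPM with carnosine and 763.7 and 746.0 CPM in controls, and its 95% interval ran from -0.33 to 0.21. A processed copy, PDIA3P1, had 1350 and 1199 counts with carnosine and 1776 and 1550 in controls, and reads shared with this copy make the counts of PDIA3 uncertain. In PDIA6, 25.2% of exonic bases are shared with exons of ATP6V1C2, which runs the other way, so its counts are uncertain too. On the same strand, PDIA5 shares 12.2% with SEC22A, DNAJB11 7.87% with AC068631.2 and SYVN1 7.24% with FAU. The counts of these genes are also uncertain.

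MANF and CRELD2 encode small proteins that are secreted when the ER is stressed. MANF had 61.9 and 61.9 CPM with carnosine against 77.7 and 83.4 CPM in controls, and missed the threshold narrowly (log2 fold change -0.38 ± 0.09 SE, adjusted p = 0.0550, edgeR). CRELD2 had 48.1 and 51.6 CPM with carnosine against 59.3 and 60.2 CPM in controls (-0.26 ± 0.09, adjusted p = 0.130). In both genes the carnosine libraries lay below the controls, as in 28.8% of all genes tested. Both had an unadjusted p under 0.05, and DESeq2 called 1 and limma-voom 0.

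PPP1R15A, or GADD34, and PPP1R15B, or CReP, direct a phosphatase to eIF2alpha and so reverse the action of PERK. The inducible PPP1R15A had 52.9 and 57.1 CPM with carnosine and 55.1 and 58.5 CPM in controls, and these overlapped (log2 fold change -0.05 ± 0.10 SE, edgeR's adjusted p = 0.806). The constitutive PPP1R15B had 119.7 and 129.9 CPM with carnosine against 100.4 and 106.6 CPM in controls (0.27 ± 0.10, adjusted p = 0.145). Neither passed, with 1 at an unadjusted p under 0.05 and 0 called by DESeq2 or limma-voom.

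The degradation genes send misfolded proteins back to the cytosol for the proteasome. Of 12, 11 were tested and 0 passed. At an unadjusted p under 0.05 there were 0 lower and 3 higher, against 14.1% and 13.3% of all genes tested. DESeq2 called 2, against 13.5%, and limma-voom 0, against 8.09%. ERLEC1, a lectin that binds trimmed glycans, had 64.8 and 73.4 CPM with carnosine against 52.1 and 54.2 CPM in controls (0.38 ± 0.10 SE, adjusted p = 0.0673). EDEM2, which starts mannose trimming, had 89.7 and 90.5 CPM with carnosine against 71.9 and 68.3 CPM in controls (0.36 ± 0.09, adjusted p = 0.0603). EDEM3, a mannosidase of the same family, had 0.35 ± 0.12 (adjusted p = 0.130). Each of these 3 had both carnosine libraries above both controls, as had 27.8% of all genes tested.

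The other lectin of this step, OS9, lay lower, with 149.9 and 144.0 CPM with carnosine against 175.0 and 167.8 CPM in controls (log2 fold change -0.22 ± 0.10 SE, adjusted p = 0.204, edgeR). EDEM1, a usual XBP1 target, had 120.1 and 113.8 CPM with carnosine and 101.9 and 119.0 CPM in controls. HERPUD1, which holds the ligase complex together and is a marker of ER stress, had 41.9 and 53.8 CPM with carnosine and 40.7 and 48.8 CPM in controls (0.10 ± 0.15, adjusted p = 0.731). The membrane ligase SYVN1, or HRD1, its partner SEL1L, DERL1, DERL2 and SELENOS had log2 fold changes between -0.12 and 0.08 and adjusted p values from 0.443 to 0.967. The groups overlapped for all of these but DERL2. DERL3 had 0 counts in every library, and a count of 0 allows up to 3 counts, or 0.0422 to 0.0596 CPM, with counting error only. Of its exonic bases, 77.0% lie under exons of SMARCB1 on the opposite strand.

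Of the 3 translocation and export genes 0 passed, with 0 at an unadjusted p under 0.05 and 0 called by DESeq2 or limma-voom. SEC61A1, the channel subunit through which proteins enter the ER, had 805.8 and 811.4 CPM with carnosine against 745.9 and 694.0 CPM in controls (log2 fold change 0.17 ± 0.11 SE, adjusted p = 0.390, edgeR). SEC61B, another subunit of the channel, had -0.005 (adjusted p = 0.985) and changed sign with 3 other scalings. SEC24D, a coat protein of vesicles that leave the ER, had 0.04 (adjusted p = 0.837).

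**Figure D3:**
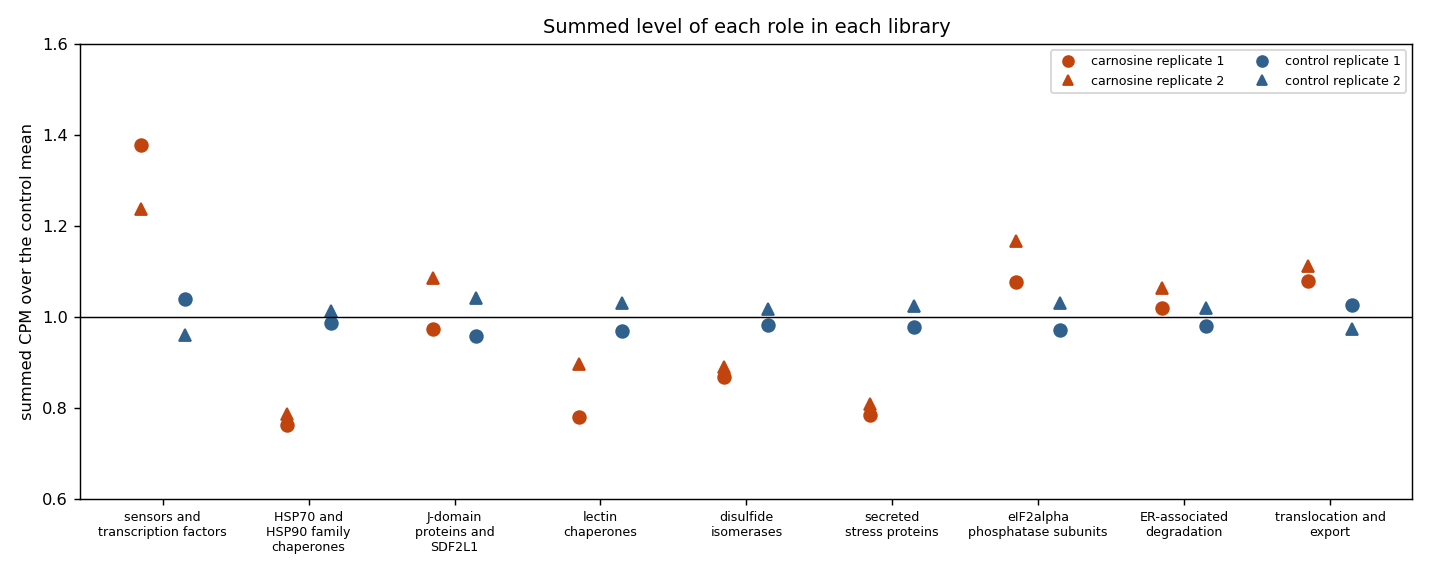
Summed CPM of the genes of each role in each library, divided by the mean of the 2 controls (y axis, from 0.6 to 1.6), carnosine left of control. By the mean of the 2 carnosine libraries, the Hsp70 and Hsp90 chaperones (0.774) and the secreted proteins (0.797) lie lowest, though single libraries of other roles come as low. The sensors and transcription factors, among which CREB3L2 is the most abundant, lie highest (1.31).

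Summed over each role, the levels went both ways. The Hsp70 and Hsp90 chaperones summed to 1199 and 1239 CPM with carnosine against 1554 and 1595 CPM in controls, a ratio of means of 0.774. The lectin chaperones summed to 1675 and 1927 CPM with carnosine against 2084 and 2217 CPM in controls. The disulfide isomerases summed to 1523 and 1562 CPM with carnosine against 1725 and 1787 CPM in controls. The degradation genes summed to 838.5 and 873.9 CPM with carnosine and 806.0 and 837.6 CPM in controls. All 40 genes summed to 7543 and 7938 CPM with carnosine against 8279 and 8509 CPM in controls, and the sums are led by a few abundant genes. The median log2 fold change was -0.04 over the 39 genes and 0.0009 over all genes tested, with 23 of the 39 below 0.

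Compared per kilobase of exon, the group spans a wide range of levels. CALR, at 424.1 CPM per kb over the 4 libraries, lay at the 99.7th percentile of tested genes, and SEC61A1, HSP90B1, P4HB, CANX, HSPA5 and PDIA4 lay between 111.7 and 162.7 CPM per kb. At the other end, ERN1 had 1.31 and DNAJB9 2.84 CPM per kb. The per-gene level of HSPA5 was 99.0 CPM per kb with carnosine and 157.3 CPM per kb in controls. In controls its level thus stood above that of HSP90B1 (156.3 CPM per kb) by less than the spread between replicates, and with carnosine below it (133.2 CPM per kb). These levels use the length of all annotated exons of a gene, which understates genes with many long transcripts.

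**Figure D4:**
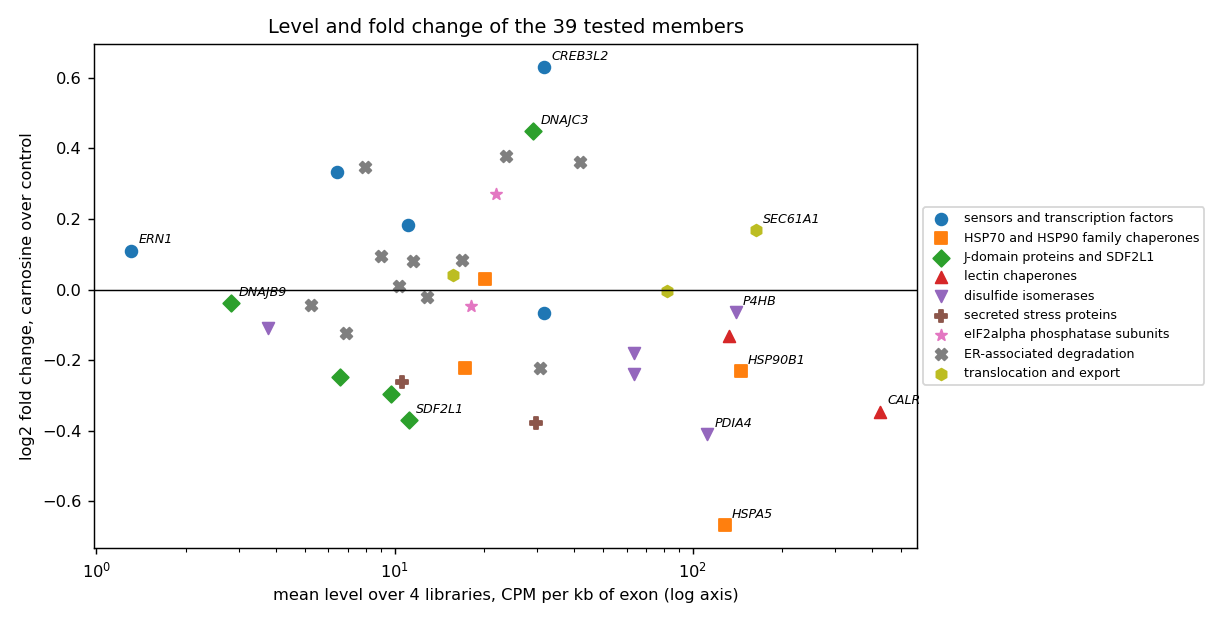
Mean level over the 4 libraries in CPM per kb of exon (x axis, log scale) against log2 fold change, carnosine over control (y axis), with 1 point for each of the 39 tested genes and a symbol for each role. HSPA5, CALR and PDIA4 lie at the lower right, and ERN1, at 1.31 CPM per kb, lies farthest left.

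Grouped by the branch that other studies name for them, 9 genes usually given to ATF6 had a median log2 fold change of -0.26. They were HSPA5, HSP90B1, HYOU1, PDIA4, CALR, CRELD2, SDF2L1, HERPUD1 and SEL1L, with 1 lower, 0 higher and 8 not past the test. In 7 of the 9 both carnosine libraries lay below both controls, against 28.8% of all genes tested. At an unadjusted p under 0.05 there were 5 of the 9 lower and 0 higher, against 14.1% and 13.3% of all genes tested. DESeq2 called 2, against 13.5% of all genes, and limma-voom 1, against 8.09%. The groups overlapped for HERPUD1 and SEL1L. The 6 genes usually given to XBP1 (DNAJB9, DNAJC3, EDEM1, SEC61A1, SEC61B and SEC24D) had a median of 0.06, with 0 past the test, 1 at an unadjusted p under 0.05, 1 called by DESeq2 and 0 by limma-voom. The difference between these lists was not tested, and many of these genes answer to both factors. Both lists were made with earlier results of these data known. They leave out other genes of the group, such as DNAJB11 at -0.30 and ERLEC1 at 0.38.

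The 7 genes with the ER stress element printed above all had log2 fold changes below 0, also with 3 other scalings, from -0.67 for HSPA5 to -0.07 for XBP1 with a median of -0.23. HSPA5 alone of the 7 passed, and the 95% intervals of HSP90B1, PDIA6, CANX and XBP1 included 0. Without control replicate 2 or carnosine replicate 1, XBP1 was above 0 (0.14 and 0.19). The 29 genes whose windows lack it had a median of -0.005, with 15 below 0, and the difference from the 7 was not tested. Outside the group, 9 tested genes had the element, and 5 of these lay below 0 with a median of -0.04, beside a median of -0.01 for other tested genes that lack it. FICD, which modifies BiP by AMPylation, had 11.4 and 12.8 CPM with carnosine against 16.1 and 18.4 CPM in controls (-0.51 ± 0.14 SE, adjusted p = 0.0650, edgeR). SYNPO, an actin-associated protein, rose (0.94 ± 0.19, adjusted p = 0.0325). ALG12, at -0.28, shares 168 exonic bases with CRELD2 on the opposite strand.

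**Figure D5:**
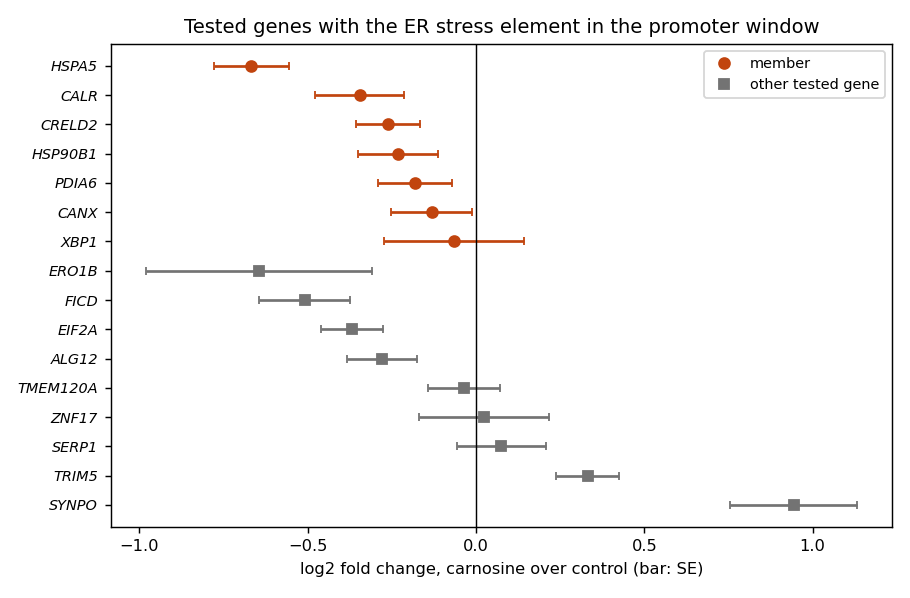
Log2 fold change, carnosine over control, with its SE (x axis) for the 16 tested genes with an exact ER stress element in a promoter window. The 7 genes of the group (circles) all lie below 0, and the 9 others (squares) run from -0.64 for ERO1B to 0.94 for SYNPO.

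In other ER lists, 8 in all, 4 of 113 tested genes passed, 3 higher and 1 lower, beside 8.31% of all genes. With DESeq2 there were 11 of the 113, beside 13.5% of all genes, and with limma-voom 5, beside 8.09%. DDIT3, or CHOP, the transcription factor at the end of the PERK branch, fell to 15.7 and 12.4 CPM with carnosine, against 20.7 and 25.2 CPM in controls (log2 fold change -0.71 ± 0.16 SE, adjusted p = 0.0445, edgeR). Its adjusted p was 0.0532 with upper-quartile factors, 0.0756 with total counts only, 0.162 without control replicate 2 and 0.0650 without carnosine replicate 2. ATF4 itself, which drives DDIT3, had 155.6 and 215.6 CPM with carnosine and 142.8 and 166.4 CPM in controls, with overlap. ATF3, CHAC1 and TRIB3 of the same list had 0.65, 0.66 and -0.34 and did not pass (adjusted p = 0.0641, 0.335 and 0.385). DDIT3 over ATF4 was 0.101 and 0.0574 with carnosine against 0.145 and 0.151 in controls, a difference that was not tested.

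The genes that rose were SELENOM, an ER selenoprotein with a thioredoxin-like fold, with 44.8 and 59.1 CPM with carnosine against 32.6 and 32.2 CPM in controls (log2 fold change 0.68 ± 0.14 SE, adjusted p = 0.0361, edgeR), SEC24A, a relative of SEC24D (0.50 ± 0.11, adjusted p = 0.0367), and NFYB, a subunit of the CCAAT-binding NF-Y (0.55 ± 0.12, adjusted p = 0.0387). The calls of all 3 ended without control replicate 1 (adjusted p from 0.0695 to 0.188) and without control replicate 2 (0.0809 to 0.222), and those of SEC24A (0.0618) and NFYB (0.0719) also without carnosine replicate 2. In the list of oxidation and thiol enzymes 1 of 15 passed, in the COPII export list 1 of 15, in the list of other ER-bound transcription factors and their proteases 1 of 9, and in the PERK list 1 of 7.

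No call was made among 17 genes of N-glycosylation, 18 of degradation, 22 of translocation and signal peptidase or 10 of ER-phagy and stress regulation, with 4, 5, 2 and 2 at an unadjusted p under 0.05. DESeq2 called 2, 0, 1 and 1 of these and limma-voom 1, 0, 0 and 0. Of all genes tested, 14.1% were lower and 13.3% higher at that unadjusted p. DESeq2 called 13.5% of them and limma-voom 8.09%. RPN1 and GANAB of glycan transfer and trimming had 0.04 and -0.14, SSR3 and SSR2 of the translocon -0.06 and -0.04, and TMBIM6 and RTN3 0.04 and 0.02. VCP and NPLOC4, which pull proteins out of the ER membrane, had -0.23 and -0.23 (edgeR's adjusted p = 0.253 and 0.282). Both had the carnosine libraries below both controls, as had 28.8% of all genes tested.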

How the data were processed

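The authors deposited unnormalized read counts of each gene for 2 carnosine and 2 control libraries, from a stranded total RNA kit. The tools HTSeq 0.6.1, HISAT2 2.1.0 and bcl2fastq 2.17.0 and the build hg38 are named per the submitters' processing notes. The sources used here do not give the annotation release, the strand setting or the treatment of reads with several matches. CPM are counts divided by the TMM-scaled library size and brought to a common total. Columns were matched to samples by title.

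Genes were filtered with filterByExpr (10 counts, or 0.171 CPM, in 2 libraries and 15 in total), which left 16340. Libraries were scaled by TMM (factors 0.976 to 1.04). Group was the only term in a two-sided quasi-likelihood F test (edgeR 4.0.16, R 4.3.3), with 2 residual and 4.92 prior degrees of freedom. The SE is the log2 fold change divided by the square root of F. Alternatives used DESeq2 1.42.0, limma-voom 3.58.1, other scalings and filters, a replicate block and each library left out. The edgeR step was checked on simulated counts. Gene lengths, coordinates and overlaps came from GENCODE 29 (GRCh38), which matched all 40 genes, and promoter windows from RefSeq.

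The genes, lists and rules were chosen with earlier results of these data known. The rule named all 40 genes, with values in every library for those that passed, the 3 sensors, XBP1, HSPA5 and HSP90B1, and up to 4 passing genes of each other list or 2 with the most counts. Other values per library, FICD, SYNPO, ALG12, ATF4, ATF3, CHAC1, TRIB3, SLC1A3 and PECAM1 were chosen after their values were seen. The labels do not say that replicates came from separate cultures, so the spread behind each p-value may be technical. No library was a copy of another: between replicates, chi-square per degree of freedom was 39.7 with carnosine and 25.7 in controls.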

Additional observations from a re-analysis of the deposited data

How the results depend on the processing

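HSPA5 kept its direction in all 12 alternatives (log2 fold change -0.72 to -0.63) and its call in 10, the exceptions being the loss of either control. Of the 39 genes, 8 were called with no filter on low counts (20.5%, against 3145 of all 26103 genes, or 12%). DESeq2 called 7 (17.9%, against 2211 of 16340, or 13.5%). In both the share lay above that of all genes. In both, however, the p-values matched a normal curve for the log2 fold change over its SE. They thus made less allowance for few libraries than the main fit, with its 2 residual and 4.92 prior degrees of freedom. With either control left out 0 were called, against 635 (3.69%) and 505 (2.94%) of all genes. With either carnosine library left out 3 were called (7.69%), against 1268 (7.47%) and 1595 (9.27%). These fits keep 1 residual degree of freedom and assume that the lone sample varies like the other group. The median over the 39 genes lay between -0.11 and 0.0007 with a library left out, the last, above 0, without carnosine replicate 1.

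With the replicate number as a block, 19 of the 39 genes were called (12 lower and 7 higher, 48.7%), against 5767 of all genes (35.3%). Of the 39, 21 kept their side of the threshold. The p-values of this fit also matched a normal curve, with less allowance for few libraries than in the main fit. The difference of replicate 1 from replicate 2 correlated between groups with r = 0.810 over the 39 genes and 0.493 over all genes tested, which are not independent. The labels name no shared culture or day, so the numbers were not taken to pair the samples.

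Genes near 0 changed sign, and none of these was called. SEC61B was 0.0015 with RLE factors, 0.0091 with upper-quartile factors, 0.0145 with total counts and 0.0016 with DESeq2, and SEL1L was 0.0023 with total counts. With a library left out, these genes had lowest and highest log2 fold changes on both sides of 0: HSPA13 (-0.20 and 0.22), HERPUD1 (-0.10 and 0.26), EDEM1 (-0.029 and 0.20), PDIA5 (-0.29 and 0.093), SYVN1 (-0.20 and 0.10), SELENOS (-0.11 and 0.13), DNAJB9 (-0.27 and 0.22), XBP1 (-0.39 and 0.19), SEL1L (-0.064 and 0.013), SEC61B (-0.18 and 0.15), SEC24D (-0.014 and 0.092), PPP1R15A (-0.11 and 0.0043) and DERL1 (-0.079 and 0.22). The cause was not tested. With 2 libraries a group, the spread between samples, not depth, limits these comparisons.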

Other observations

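With 1 mismatch allowed in the 10 fixed letters of the ER stress element, 13 of the 36 genes with a promoter window held it (36.1%), against 2.46% of other tested genes. Of these 13, 11 had a log2 fold change below 0, with a median of -0.18, and DNAJC3 (0.45) and HERPUD1 (0.10) lay above 0. The 23 genes without it had a median of 0.01, with 11 below 0. Among 249 other tested genes with it, 18 were called lower and 11 higher, and the median was -0.05, beside -0.01 for those without it. This looser search was made after the values were seen, and no difference was tested. The share among the 36 genes is again tied to how they were chosen.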
